A study of Mus musculus with 18 samples.

Results

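The guides described here target cytokine, interferon and chemokine receptor genes in a pooled CRISPR screen of MC38, a mouse colon carcinoma line that grows as a tumour in C57BL/6 mice. They were taken by gene symbol alone, as the interleukin, interferon, TNF, colony-stimulating factor, chemokine and TGF-beta or activin receptor symbols of the guide table. This gave 288 guides of 18146 in the table, 4 for each of 72 genes of 4532. The screen consists of 1 library from C57BL/6 wild-type mice implanted with the pooled cells and 1 library from B6-Rag1-KO mutant mice that likewise received pooled cells. Mice without Rag1 lack mature T and B cells, because the RAG recombinase assembles the antigen receptor genes. The labels do not say how many animals went into either library, and they give no age. RNA sequencing of MC38 cells labelled Mbtps1 WT, as implanted tumours (5 libraries) and as cultured cells (3 libraries), was used for the level of each targeted mRNA.

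The receptors of this group sit in the plasma membrane and turn extracellular signals into gene expression. Interferon and most interleukin receptors act through JAK kinases and STAT factors, TNF receptors through TRAF adaptors and, for those with a death domain, caspases, TGF-beta receptors through SMAD factors, and chemokine receptors through G proteins. On tumour cells, interferon gamma raises antigen presentation, TGF-beta restrains the growth of many epithelial cells, and TNF can activate NF-kappa-B or cell death. Most chemokine receptors and many interleukin receptors are known instead from leukocytes. The label holds for nearly all members by gene function, with a few relatives that do not signal as receptors. Il1rn encodes a secreted antagonist of the interleukin-1 receptor, Il22ra2 and Tnfrsf11b encode secreted decoys, Il1r2 and Il13ra2 encode decoy receptors, and Ackr1 and Ackr3 are atypical chemokine receptors.

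The C57BL/6 library held 27142741 reads and the Rag1-KO library 19114273. Receptor guides took 1.61% of the reads in the C57BL/6 library and 1.56% in the Rag1-KO library. None of the 288 was at 0 in either library, and all passed the minimum of 20 reads over both. Levels are given in CPM, reads scaled to a library total of 1000000. The median receptor guide stood at 47.7 CPM in the C57BL/6 library and 45.2 CPM in the Rag1-KO library, against 44.6 and 40.7 CPM for all guides of these libraries. Across the receptor guides the log2 levels of the libraries had a Pearson r of 0.75 (n = 288 guides), against 0.77 over all 18108 guides with enough reads. Those points all come from the same 2 libraries. With 1 library per host there is no replicate, so no difference between hosts has a test, and the 4 guides of a gene share 1 pool and 1 library per host. Intervals and ranges over guides therefore say nothing about the spread between mice. No library of the pool before implantation is among the samples, so the starting level of each guide is unknown. A ratio therefore cannot tell gain in C57BL/6 mice from loss in Rag1-KO mice, or the reverse.

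As a group, receptor guides were distributed between the hosts much as the rest of the library was. The log2 ratio of C57BL/6 over Rag1-KO, computed with a pseudocount of 1 CPM, had a median of 0.10 over the receptor guides and of 0.12 over all 18108 guides counted. The quartiles were -0.48 and 0.65 for receptor guides, and -0.47 and 0.69 for all guides. More than 2-fold higher in the C57BL/6 library were 36 receptor guides (12.5%), where 14.9% of all guides were. More than 2-fold lower were 38 (13.2%), against 11.1% of all guides. Of all receptor guides 161 lay above 0 (55.9%), beside 55.7% in the whole table. A set of 24 guides named CTRL in the table, taken here as controls, had a median of 0.08 and an SD of 0.98, against an SD of 0.91 for receptor guides. The shift of 0.12 for the typical guide means that a ratio of 0 is not the middle of the library. Scaled to the median of all guides, 22 receptor guides were past 2-fold higher (7.64%, against 11.85% of all guides). Past 2-fold lower were 43 (14.9%, against 13.5% of all guides). Of the receptor guides past 2-fold 33.8% were then higher, beside 46.7% of all guides past 2-fold. With library totals the share higher among guides past 2-fold was 48.6% for receptor guides and 57.4% for all guides. The whole table thus moved the same way with the scaling.

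Counting error was small beside this spread. The 95% exact binomial (Clopper-Pearson) interval of a receptor guide's ratio reached a median of 0.13 to either side. It covers the sampling of reads alone, and the reads carry no molecular identifiers. The interval was computed without the pseudocount, so in a scarce guide the ratio given can lie outside it. An Il1rap guide had a ratio of -1.957 and an interval from -2.84 to -1.966. The interval left out 0 for 257 of the 288 receptor guides (89.2%), for 87.2% of all guides and for 19 of the 24 CTRL guides. Depth made little difference to the scatter. When all guides were split into 4 equal classes by reads, receptor guides of the lowest class (n = 67) had an SD of 0.94 and an interval of 0.24 to either side. Those of the highest class (n = 69) had an SD of 0.96 and an interval of 0.09 to either side.

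Guides to the same receptor agreed only in part. All 4 guides were higher in the C57BL/6 library for 8 of the 72 receptor genes (11.1%), where 10.1% of all 4529 genes with at least 3 counted guides were. All were lower for 4 receptor genes (5.56%), against 4.0% of all genes. In 27 receptor genes (37.5%) the guides split 2 to 2, as in 35.2% of the genes of the table with 4 counted guides. The median SD over the guides of a gene was 0.74 for receptors and 0.79 for all genes. An intraclass correlation, the share of the guide variance that lies between genes, was 0.10 over the 72 receptor genes and 0.02 over 4492 genes. Gene medians ran from -1.61 for Il1r1 to 1.52 for Tnfrsf1b. They passed 2-fold upward in 4 receptor genes (5.56%, against 3.55% of all genes), which were Tnfrsf1b, Ifnar2, Il6ra and Il1rl2. With the reads summed over the guides, or with the mean of the guides, Tnfrsf1b alone passed upward (1.39%), below the 3.09% and 2.47% of all genes, and the other 3 calls were lost. The medians passed 2-fold downward in 3 (4.17%, against 1.83%), which were Il1r1, Acvr1c and Tgfbr2. Downward, 3 passed by summed reads (4.17%, against 3.27% of all genes), which were Il1r1, Tgfbr2 and Ifngr1, and 2 by the mean (2.78%, against 1.41%), Il1r1 and Tgfbr2. Acvr1c stood at -0.87 by summed reads and -0.96 by the mean. Of the 7 genes past 2-fold in their medians, the guides were on one side of 0 throughout for Tnfrsf1b and Tgfbr2, and 1 guide in 4 lay on the other side in each of the other 5.

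Ifngr1 encodes the ligand-binding chain of the interferon gamma receptor, through which T and natural killer cells raise antigen presentation in their targets. Its 4 guides, in order of serial number, stood at 4.27, 12.01, 21.3 and 4.90 CPM in the C57BL/6 library and at 4.71, 19.3, 45.3 and 22.5 CPM in the Rag1-KO library. All 4 were lower in the C57BL/6 library, with log2 ratios of -0.11, -0.64, -1.05 and -1.99 and a median of -0.85. The size differed between guides, and the 95% counting interval of the first included 0. Summed over the guides, Ifngr1 had 1153 reads in the C57BL/6 library and 1755 in the Rag1-KO library, a log2 ratio of -1.09 (95% counting interval -1.22 to -1.004). Its summed level of 42.5 CPM in the C57BL/6 library and 91.8 CPM in the Rag1-KO library compares with medians of 207 and 189 CPM over receptor genes in the same libraries, so the guides were scarce in both hosts.

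The type I interferon receptor is a pair of Ifnar1 and Ifnar2 chains, and their guides did not run together. For Ifnar2, the guides stood at 15.8, 54.8, 115 and 42.3 CPM in the C57BL/6 library and at 48.1, 22.2, 33.6 and 12.2 CPM in the Rag1-KO library. The log2 ratios were -1.54, 1.26, 1.75 and 1.71, so 3 guides were higher in the C57BL/6 library and 1 was lower by almost as much (median 1.49). Ifnar1 showed the reverse makeup. Its guides stood at 54.6, 5.19, 35.1 and 57.8 CPM in the C57BL/6 library and at 64.8, 10.2, 5.65 and 58.4 CPM in the Rag1-KO library. A single guide, with 953 reads in the C57BL/6 library and 108 in the Rag1-KO library, had a ratio of 2.44, and the other ratios were -0.24, -0.85 and -0.02, giving a median of -0.13, against 0.13 for the reads summed over the guides.

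TNF receptors were the family with the most genes whose guides all lay higher in the C57BL/6 library, 6 of 14 (42.9%, where 10.1% of all genes had), while none had all guides lower (4.0% of all genes). The median of the 14 gene medians was 0.25, with 11 above 0 and 3 below, where 59.5% of all genes lay above 0. Scaled to the median of all guides, that median was 0.13 and the agreement count 4 of 14, against 6.65% of all genes. Tnfrsf1b encodes TNF receptor 2, which binds membrane TNF and signals through TRAF2 without a death domain. Its guides had 90.2, 72.0, 78.7 and 347 CPM in the C57BL/6 library and 63.0, 46.8, 12.9 and 63.9 CPM in the Rag1-KO library. Each guide was higher in the C57BL/6 library, with ratios of 0.51, 0.61, 2.52 and 2.42 and a median of 1.52. The fourth, SMprotein_17106, held the most reads of any receptor guide, 9411 in the C57BL/6 library and 1221 in the Rag1-KO library. Without the third or without the fourth guide the Tnfrsf1b median was 0.61, and without the first or the second it was 2.42.

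Tnfrsf12a, the receptor of the cytokine TWEAK, had its guides closer together. They stood at 181, 137, 85.6 and 53.0 CPM in the C57BL/6 library and at 95.2, 79.3, 34.3 and 35.6 CPM in the Rag1-KO library, ratios of 0.92, 0.78, 1.296 and 0.56 (median 0.85). Tnfrsf11a, which encodes RANK, the receptor that drives osteoclast formation, had 17.2, 104, 200 and 150 CPM in the C57BL/6 library, against 13.7, 61.5, 109 and 79.7 CPM in the Rag1-KO library (median 0.81). Tnfrsf8, which encodes CD30 of activated lymphocytes, had guides between 0.56 and 1.04 (median 0.67). These 3 genes and Tnfrsf1b kept all guides above 0 under both other scalings. Tnfrsf13c, the BAFF receptor of B cells, and Tnfrsf21, a death domain receptor, each had 1 guide near 0 (0.06 and 0.02), which lay below 0 under both other scalings. Their medians were 0.95 for Tnfrsf13c and 0.73 for Tnfrsf21.

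Tnfrsf1a, the death domain TNF receptor 1, had guides that went both ways. They stood at 41.0, 54.3, 80.4 and 37.0 CPM in the C57BL/6 library and at 47.1, 46.8, 49.7 and 53.0 CPM in the Rag1-KO library, ratios of -0.20, 0.21, 0.68 and -0.51 (median 0.01), and the counting interval of each left out 0. Tnfrsf11b, the secreted decoy osteoprotegerin, had the lowest median of the family, -0.82, but its guides split. A pair had ratios of -2.17 and -1.67, and the other two had 0.41 and 0.02. Of the relatives of the TNF receptor family outside the symbol rule, 5 had guides in the table. Their medians lay between 0.33 for Edar, whose summed reads gave 0.04, and 1.36 for Fas, the death receptor engaged by cytotoxic lymphocytes. The 3 Fas guides with enough reads stood at 52.5, 24.7 and 36.3 CPM in the C57BL/6 library and at 19.8, 8.84 and 24.0 CPM in the Rag1-KO library. Cd40, the receptor of CD40 ligand, had 3 guides of 4 above 0 (median 1.22), and Ngfr had 4 of 4 (median 0.74).

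All 4 genes of the TGF-beta and activin receptors had medians below 0, under each of the 3 scalings. With library totals 1833 of all 4529 genes had a median below 0, and that share was not computed under the other scalings. Tgfbr2 encodes the type II receptor that binds TGF-beta and phosphorylates the type I chain. Its guides had 165, 61.5, 122 and 99.3 CPM in the C57BL/6 library and 248, 236, 221 and 241 CPM in the Rag1-KO library. Every guide was lower in the C57BL/6 library (-0.58, -1.92, -0.85 and -1.27, median -1.06). The levels in the Rag1-KO library lay close together while those in the C57BL/6 library did not, and summed they made Tgfbr2 the most abundant receptor gene of the Rag1-KO library, at 947 CPM, against 448 CPM in the C57BL/6 library. Without any one guide the median stayed between -1.27 and -0.85.

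Tgfbr1, the type I chain of the same receptor, had 3 guides lower and 1 higher. They stood at 78.3, 7.44, 121 and 62.6 CPM in the C57BL/6 library and at 134, 11.9, 142 and 29.2 CPM in the Rag1-KO library, ratios of -0.76, -0.61, -0.23 and 1.08 (median -0.42). Acvr1c, the type I receptor ALK7 of the activin and Nodal branch, had ratios of -1.01, 0.31, -1.66 and -1.47 (median -1.24). Tgfbr3, the co-receptor betaglycan, lay between -0.28 and 0.34 in 3 guides and at -1.37 in the last (median -0.14). Relatives of this family outside the symbol rule had medians on both sides of 0, at 0.29 for Acvrl1, -0.05 for Eng, -0.22 for Bmpr2 and -0.94 for Bmpr1b.

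Interleukin receptor genes numbered 31, with a median of gene medians of 0.22, 20 above 0 and 11 below, close to the 59.5% of all genes above 0. All 4 guides were higher in 1 gene, Il1rl1 (3.23%, against 10.1% of all genes), and lower in 1, Il22ra2 (3.23%, against 4.0%). Both other scalings added Il18rap to the genes with all guides lower, making 2 of 31. The share of all genes with all guides lower was then 6.31% scaled to the median of all guides and 5.52% scaled to the CTRL guides. Il1rl1 encodes ST2, the receptor of interleukin-33. Its guides had 27.4, 111, 209 and 36.3 CPM in the C57BL/6 library and 17.2, 79.7, 88.9 and 19.7 CPM in the Rag1-KO library. All were higher in the C57BL/6 library, by 0.64, 0.48, 1.22 and 0.85 on the log2 scale (median 0.75), and without any one guide the median was between 0.64 and 0.85. Il1rap, the accessory chain that ST2 shares with the interleukin-1 and interleukin-36 receptors, had 3 guides between 0.70 and 0.86 and the last at -1.96 (median 0.72). That last Il1rap guide was scarce, with 2.10 CPM in the C57BL/6 library and 11.04 CPM in the Rag1-KO library.

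Il1r1, the signalling interleukin-1 receptor that uses the same accessory chain, lay at the other end. Its guides had 18.2, 68.6, 18.1 and 44.0 CPM in the C57BL/6 library and 102, 50.6, 42.8 and 183 CPM in the Rag1-KO library. The ratios were -2.42, 0.43, -1.20 and -2.03, so 3 guides were more than 2-fold lower in the C57BL/6 library and 1 was higher (median -1.61). In Il6ra, the interleukin-6 binding chain, the guides differed most of all receptor genes, over a range of 4.54. They had 29.1, 24.8, 136 and 90.9 CPM in the C57BL/6 library and 21.97, 93.9, 20.8 and 18.0 CPM in the Rag1-KO library, ratios of 0.39, -1.88, 2.66 and 2.27. The Il6ra median of 1.33 was 0.39 without the third or without the fourth guide. Il6st, the gp130 chain that signals for Il6ra, had all 4 guides below 0 (median -0.32).

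In several other interleukin receptor genes the guides lay far apart. Il18rap, the accessory chain of the interleukin-18 receptor, held the lowest ratio of any receptor guide, -2.62, from 874 reads in the C57BL/6 library and 3872 in the Rag1-KO library, beside 0.04, -1.10 and -0.11, and without that guide or without the one at -1.10 the median was -0.11. Il22ra2, a secreted decoy of interleukin-22, had -2.02 in 1 guide and -0.19, -0.24 and -0.01 in the others, so that its median was between -0.24 and -0.19 whichever guide was left out. Il7r, needed for lymphocyte survival, spread from -1.41 to 1.79, with a pair of guides on each side of 0. Il2rg, the common gamma chain of lymphocyte cytokine receptors, had 3 guides of 4 above 0 (median 0.61). Among 13 receptors built from more than 1 of these chains, the chain medians lay on one side of 0 in 9. No share was computed for other sets of genes, and 59.5% of all gene medians lay above 0. Several chains, such as Il1rap and Il17ra, also count in more than 1 of the 13, so agreement between chains cannot be read from this count. The widest gaps between chains were 2.33 for the interleukin-1 receptor, Il1r1 against Il1rap, and 1.62 for Ifnar2 against Ifnar1.

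Over the 17 chemokine receptor genes the median of gene medians was -0.01, against 0.12 over all genes. None passed 2-fold in its median, where 3.55% of all genes passed upward and 1.83% downward. None had all 4 guides on one side of 0, where 14.1% of all genes had their counted guides so. Cxcr5 of B cells did have all 4 below 0 when scaled to the median of all guides, as 6.31% of all genes then had. The lowest median was -0.69 for Cxcr2, a neutrophil receptor. Medians lay above 0 in 8 genes and below in 9, where 59.5% of all genes lay above 0. Cxcr3, which guides activated T cells to interferon-induced chemokines, had ratios of -0.36, -0.25, 0.77 and -0.21. Cxcr4, the receptor of CXCL12, had 58.3, 112, 128 and 49.2 CPM in the C57BL/6 library and 96.2, 107, 137 and 22.2 CPM in the Rag1-KO library (median -0.02). Ccr2 of monocytes had a median of 0.35 over guides from -1.42 to 1.01. Cxcr1 had 1 of the 3 most abundant receptor guides, at 189 CPM in the C57BL/6 library and 159 CPM in the Rag1-KO library, and a median of 0.10.

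The 3 colony-stimulating factor receptor genes had medians between -0.28 and 0.32. Csf1r, the macrophage growth factor receptor, had all 4 guides lower in the C57BL/6 library, by -0.21, -0.54, -0.11 and -0.36. Csf2ra, of the GM-CSF receptor, had all 4 higher, from 0.02 to 0.62, and lost that agreement under both other scalings. Csf3r, the receptor of the granulocyte growth factor G-CSF, had guides on both sides, at 0.90, -0.22, 0.20 and -0.55 (median -0.01). None of the 12 guides of this family passed 2-fold in either direction, where 14.9% of all guides passed upward and 11.1% downward.

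Whether a receptor is made by MC38 cells was read from the control cell RNA, which played no part in choosing the guides. Total counts ran from 19630410 to 28316572 in the 5 tumour libraries and from 14240353 to 15155599 in the 3 cell libraries. The labels do not say that these were separate cultures or animals. The cells listed Ptprc, the pan-leukocyte gene, at 0, and they also listed the epithelial genes Epcam and Cdh1 at 0. Krt8, an epithelial keratin, went the other way, listed at 0 in all 5 tumour libraries and averaging 2.77 ± 1.33 CPM in the cells (SD, n = 3). A listing at 0 is therefore given here only as a listing, not as absence of the mRNA. Of the 57 receptor genes in the gene table, 23 had a mean of at least 1 CPM in the control cells, 4 were lower than that and 30 were listed at 0. The other 15 are not in the gene table and were not analysed here for mRNA. Among all genes with at least 3 counted guides, 1200 reached 1 CPM in the control cells, 1127 were lower or listed at 0, and 2202 are not in the gene table. Expressed were all 3 interferon receptor genes and 3 TGF-beta and activin receptor genes, while Acvr1c of that family is not in the gene table. Of the chemokine receptor genes in the gene table only Ackr3 was expressed, and Ccr3, Ccr4, Ccr6 and Cxcr1 are not in it. None of the 3 colony-stimulating factor receptor genes was expressed.

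Per kilobase of merged exons, Il1rl1 was the most expressed receptor in control cells at 72.0 CPM per kilobase, followed by Tnfrsf12a at 57.6, Tgfbr3 at 41.4 and Tnfrsf1a at 36.1. In CPM, Il1rl1 averaged 352 ± 45.3 in control tumours (SD, n = 5) and 497 ± 45.5 in control cells (SD, n = 3). Tnfrsf12a averaged 144 ± 21.97 CPM in the tumours and 111 ± 9.49 in the cells, Tgfbr2 188 ± 16.2 in the tumours and 81.3 ± 6.94 in the cells, and Ifngr1 151 ± 8.09 in the tumours and 56.8 ± 3.46 in the cells. Tnfrsf1b averaged 126 ± 13.8 CPM in the tumours and 36.5 ± 9.90 in the cells, and Il1r1 3.25 ± 0.841 in the tumours and 2.23 ± 0.987 in the cells. The genes at the ends of the ranking, Tnfrsf1b and Il1r1, were thus both detected in the cells, Il1r1 at a low level of 0.351 CPM per kilobase.

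Medians of the expressed receptors, by the cut of 1 CPM, were spread more widely than those of the receptors measured below 1 CPM or listed at 0. Il1r1, with the lowest median, averaged 2.23 CPM in the control cells (0.351 CPM per kilobase). At a minimum of 5 CPM or of 1 CPM per kilobase it would count as not expressed, and the spread was not recomputed at those cuts. Of the 23 expressed genes, 3 passed 2-fold upward (13.04%, against 4.42% of 1200 expressed genes of the guide table) and 2 downward (8.70%, against 1.42%). By summed reads or by the mean, 1 of the 23 passed upward, Tnfrsf1b (4.35%, against 3.92% and 3.17% of expressed genes). Downward 3 passed by summed reads (against 3.50%) and 2 by the mean (against 1.25%). Of the 34 receptor genes in the gene table that were not expressed, 1 passed upward (2.94%, against 2.66% of 1127 such genes) and none downward (against 1.33%). The 15 receptor genes that are not in the gene table are kept apart. Of these 1, Acvr1c, passed downward (6.67%, against 2.32% of 2202 such genes) and none upward (against 3.54%). The SD of the medians was 0.77 for expressed receptors and 0.48 for those not expressed, beside 0.51 and 0.47 over all genes split in the same way. The share of the guide variance lying between genes was 0.16 in the expressed receptors and 0.06 in those not expressed, against 0.019 and 0.0021 over all genes. All 4 guides lay on one side of 0 in 5 of the 23 expressed genes (Tnfrsf1b, Tnfrsf12a, Il1rl1, Tgfbr2 and Ifngr1), 21.7% against 15.5% of all expressed genes. They did so in 5 of the 34 not expressed, 14.7% against 14.5%, a share near the background. Among the last 5, Csf1r was listed at 0 in the cells and averaged 219 ± 55.4 CPM in the tumours (SD, n = 5). In the tumours, 21 of the 30 receptor genes listed at 0 in cells reached a mean of 1 CPM. The same share was not computed over all genes listed at 0 in cells, so it cannot be read as particular to receptors. Fewer cells of a type and less RNA per cell cannot be told apart in such bulk libraries. The difference between expressed receptors and those not expressed has no test.

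Neighbouring receptor genes in the genome shared a direction in some groups and not in others. In the GENCODE M21 annotation of GRCm38, 33 of the 72 genes lie in 12 groups whose neighbours are at most 500000 bases apart, and the guide table gives no cut positions within them. The interleukin-1 receptor group on chromosome 1 runs from Il1r2 (start 40074079) to Il18rap (end 40551705), all on the plus strand. Its medians were -0.85 for Il1r2, -1.61 for Il1r1, 1.10 for Il1rl2, 0.75 for Il1rl1 and -0.61 for Il18rap, in genome order. On chromosome 16 Ifnar2, from 91372783 to 91405589, stood at 1.49, and Il10rb, from 91406164 to 91425834, at -0.18. Medians also lay on both sides of 0 for Cxcr2 and Cxcr1, Il2ra and Il15ra, and Tnfrsf4 and Tnfrsf18. So did those of Il4ra and Il21r, Il2rg and Cxcr3, and the chemokine receptor group on chromosome 9. Direction was shared by the medians of Il12rb2 and Il23r, of Il17re and Il17rc, and of the pairs that follow. No share was computed for other neighbouring genes, and 59.5% of all gene medians lay above 0. Tnfrsf1b, from 145213463 to 145246870 on the minus strand of chromosome 4, and Tnfrsf8, from 145267137 to 145315164, had all 4 guides higher each. Ifngr1, from 19591949 to 19610229 on the plus strand of chromosome 10, and Il22ra2, from 19621998 to 19634681, had all 4 guides lower each.

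Of 28 partner and related receptors outside the symbol rule, 20 had at least 3 counted guides, with a median of 0.31, 14 above 0 and 6 below, against a median of 0.12 and 59.5% above 0 over all genes. In 2 of them, Fas and Cd40, the median was past 2-fold higher (10%, against 3.55% of all genes), and in none was it past 2-fold lower (1.83% of all genes). Of 24 signalling and antigen presentation genes, 4 were in the table. Tapbp, which loads peptides on MHC class I, had 10.7, 29.7, 21.8 and 10.9 CPM in the C57BL/6 library and 8.89, 18.5, 2.04 and 5.44 CPM in the Rag1-KO library, all 4 guides higher (median 0.77). The checkpoint ligand genes Cd274 (median -0.51) and Pdcd1lg2 (median -0.90) each had 3 guides of 4 lower in the C57BL/6 library. Cd47, the signal against engulfment, had 3 of 4 higher (median 0.49).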

How the data were processed

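Guide abundance was measured in 1 library per host, and mRNA in 5 control tumour and 3 control cell libraries. Both tables hold whole-number read counts as the authors deposited them, per guide and per gene symbol, with no normalization. The sources used here do not say how guide reads were counted; the submitters' processing notes name STAR 2.7.1a, HTSeq 0.13.5 and others without a role, and the human build hg38, although the symbols are mouse. No column of values lacked a sample. Samples were grouped by title.

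Counts were scaled to CPM by library totals. Ratios used a pseudocount of 1 CPM, at least 20 reads over both libraries, and the median over at least 3 guides per gene; past 2-fold means beyond 1 on the log2 scale. No test was made. The script was checked on simulated counts with read sampling noise alone and the same ratio for all guides of a gene. That check does not cover disagreement between guides. Python 3.11.15, pandas 2.3.3, numpy 2.4.6 and scipy 1.17.1 were used. Alternatives were other pseudocounts, read minimums, scalings and gene summaries, and leaving out control cell libraries.

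The members and lists were chosen with earlier results of these data known. Named genes were 15 fixed receptors (of 20 listed), family extremes, genes with agreeing guides, the widest ranges and the extreme guides, 29 in all, of which 1 is not reported here. Partner chains, decoys and neighbours outside this rule were chosen after their values were seen. The knockdown libraries were not used.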

Additional observations from a re-analysis of the deposited data

Results flagged for a closer look

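In the 5 control tumour libraries, Tnfrsf11b had 1 library far above the others, at 1.90 CPM, where the rest lay between 0.229 and 0.357 CPM. It was the only one of the named receptor genes marked by a check for a single distant library, which marks about 1 group in 20 by chance, and the guide ratios do not use it.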

How the results depend on the processing

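The counts of receptor guides and genes past 2-fold or with agreeing guides were within 1.5 times the reported value under most settings. Of the 29 named genes, 24 kept the sign of their median under every planned setting (the others, Cxcr1, Cxcr4, Ifnar1, Il7r and Tnfrsf1a, had medians within 0.25 of 0), and 24 without any one guide (a check added after seeing the data); Tnfrsf11b reached 0.02 without one guide. The receptor guide median was 0.0914 with a pseudocount of 5 CPM, 0.0863 with at least 100 reads, -0.0240 scaled to the median of all guides and 0.0144 scaled to the CTRL guides, beside 0.11, 0.12, 0.00 and 0.04 over all guides. Receptor guides past 2-fold higher were 22 with a pseudocount of 5, and 22 scaled to the median of all guides, where the share of all guides was 10.995% and 11.85%, against 14.9% as reported. Genes with all guides higher were 5 scaled to the median of all guides, and 5 scaled to the CTRL guides (6.65% and 7.55% of all genes). Genes past 2-fold higher were 1 with reads summed over guides and 1 with the mean over guides (3.09% and 2.47% of all genes). Expressed receptors were 22 to 23 when 1 control cell library was left out, 19 at a minimum of 5 CPM and 20 at 1 CPM per kilobase (added after seeing the data). The cause of these shifts was not tested. No paired analysis was possible because the comparison between hosts has 1 library each and no test was made on the RNA libraries. With 1 library per host the spread between mice cannot be estimated at any depth.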
